A study of Mus musculus with 16 samples.

Results

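Cd163l1, Neb, Aff3, Pou6f1, Gcnt2, Tuba8 and Chl1 are 7 protein-coding genes with no textbook place in T cell function that differed strongly between Foxp3UP and MockUP cells. They were picked for that difference from 55573 genes in the deposited count table, of which 13711 passed the filter on low counts, and all 7 of the picked genes passed it. Their values in Foxp3UP against MockUP are therefore given as a description, with no test. The genes were not picked for the difference between Foxp3DN and MockDN cells, and they were tested there. Earlier results of these data were known at the choice, so those libraries may not be fully independent of it.

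The RNA came from OT1 CD8 T cells of the C57BL/6 strain, whose T cell receptor is a transgene that recognises a peptide of ovalbumin. Mice with tumours had received Foxp3UP and Mock cells together, and live cells were recovered from tumour suspensions after 5 days by sorting on CD8, CD45.1 and/or CD90.1. Foxp3UP cells had MockUP cells as their control and Foxp3DN cells had MockDN cells, with 4 libraries in every group. The labels do not say how Foxp3, the lineage factor of regulatory T cells, was introduced, what UP and DN stand for, which tumour was used, or whether a library came from 1 animal or a pool. P-values here measure the spread between these libraries, which may be technical.

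The 16 libraries held 9389477 to 13226590 counts. Foxp3 itself stood at 23.6 ± 6.82 CPM in Foxp3UP and 12.4 ± 1.12 in MockUP, and at 10.3 ± 0.130 in Foxp3DN and 12.9 ± 1.52 in MockDN (TMM-scaled CPM, mean ± SD, n = 4 each, here and below). Markers of CD8 T cells summed to 6390 to 7560 CPM in Foxp3UP libraries, 4090 to 7180 in MockUP libraries, 6130 to 7260 in Foxp3DN and 6180 to 6510 in MockDN. MockUP 2 stood apart: its levels correlated with exonic length at a Spearman value of 0.398 across genes, against 0.279 to 0.323 in the other 15 libraries. The titles number replicates 1 and 2 of the groups as samples 1 to 8 and replicates 3 and 4 as samples 9 to 16, and values are also given within these sets where they differ.

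As background, the genes come from families that are better known outside T cells. Cd163l1, also named Scart1, encodes a membrane protein with scavenger receptor cysteine-rich (SRCR) domains that is known in mice from gamma-delta T cells. Neb encodes nebulin, a giant protein that lies along actin thin filaments of skeletal muscle. Aff3 encodes a nuclear protein of the AF4/FMR2 family, whose members act in transcription elongation, and it is known from lymphoid cells. Pou6f1 encodes a POU-homeodomain transcription factor studied mainly in the nervous system. Gcnt2 encodes the enzyme that adds branches to lactosamine chains of glycans and so makes the I blood group antigen. Tuba8 encodes a divergent alpha-tubulin, and Chl1, the close homolog of L1, encodes an adhesion molecule of neurons.

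The sequence before the transcription start is shown for 3 starts of genes that were lower in Foxp3UP cells. Cd163l1, the gene with the largest fold, and Pou6f1 are shown because RefSeq and the count table give them the same start. The start inside Gcnt2 is shown because a searched motif lies in its window outside annotated exons. Each run is the 250 bases before a RefSeq start on GRCm38.p6, the mm10 assembly, 5′ to 3′ on the gene's strand. Capitals mark a TCF/LEF core motif.
Cd163l1, chr7:140218017-140218266, plus strand: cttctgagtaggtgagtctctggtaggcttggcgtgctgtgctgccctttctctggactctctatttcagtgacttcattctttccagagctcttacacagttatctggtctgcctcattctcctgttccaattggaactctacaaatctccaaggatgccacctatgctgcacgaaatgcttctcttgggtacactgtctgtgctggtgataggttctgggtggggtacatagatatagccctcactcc
Pou6f1, chr15:100599985-100600234, minus strand: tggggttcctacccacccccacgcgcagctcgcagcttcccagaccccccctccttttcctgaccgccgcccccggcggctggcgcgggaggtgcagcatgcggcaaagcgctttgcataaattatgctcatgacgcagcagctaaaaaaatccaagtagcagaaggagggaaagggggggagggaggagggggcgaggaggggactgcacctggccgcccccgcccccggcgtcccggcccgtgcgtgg
Gcnt2, internal start, chr13:40886508-40886757, plus strand: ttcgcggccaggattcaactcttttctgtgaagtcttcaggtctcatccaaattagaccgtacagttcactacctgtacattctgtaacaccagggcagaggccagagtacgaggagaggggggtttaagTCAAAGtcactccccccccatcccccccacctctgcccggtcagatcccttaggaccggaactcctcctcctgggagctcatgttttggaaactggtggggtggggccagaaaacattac

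The motifs searched on both strands were CTTTGA (TCF/LEF core), TGTTTAC (forkhead) and TGCTGA (MAF), and no window held more than 1 match. In all 32851 RefSeq windows of this length, 13.8% held the first, 3.2% the second and 16.1% the third. Among the 8 windows of 6 of the 7 genes, the TCF/LEF letters occurred at this Gcnt2 start and at Chl1, and the other motifs did not occur. Guanine and cytosine made up 48.8% of the Cd163l1 window, 68.0% of the Pou6f1 window and 54.0% of this Gcnt2 window. A match of letters is a description of the window and not a binding site.

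**Figure D1:**
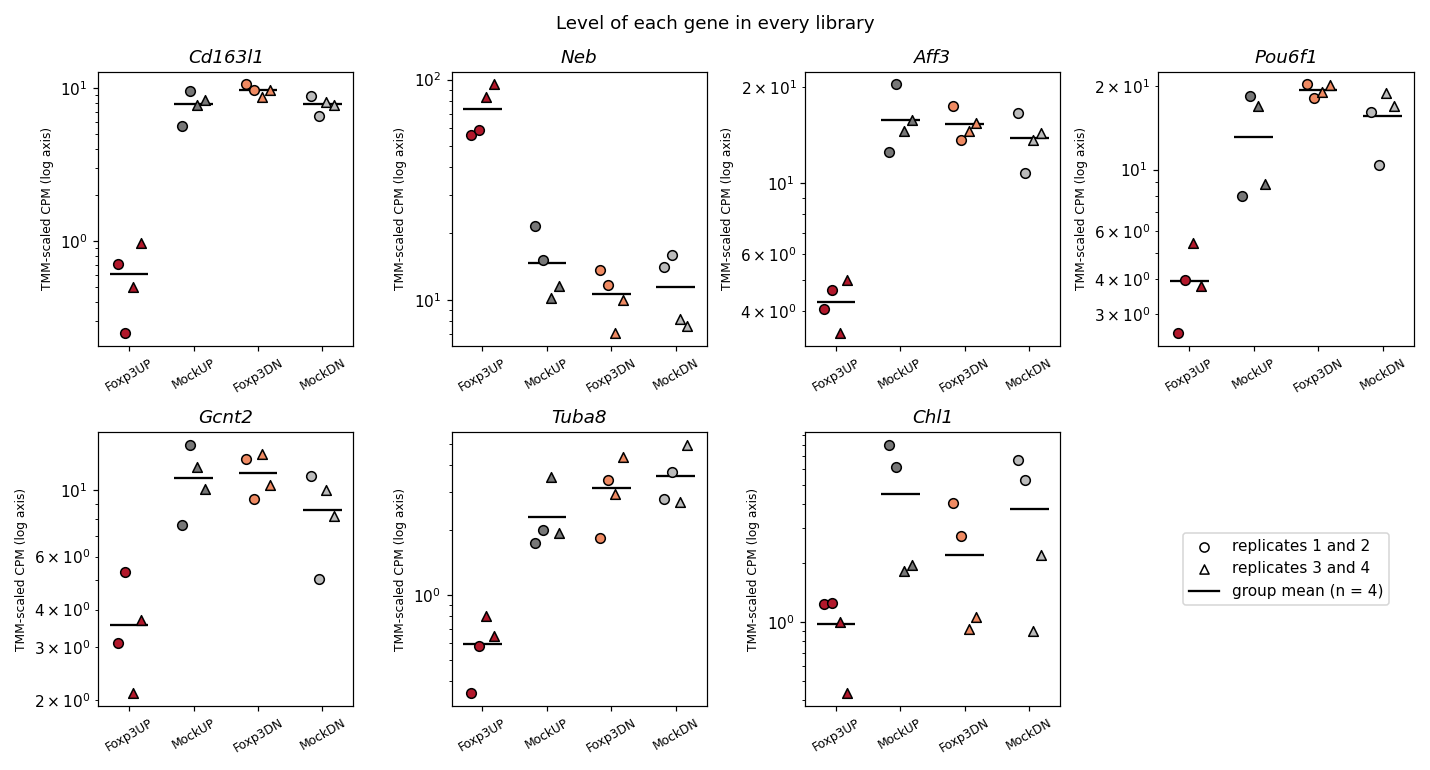
TMM-scaled CPM (log axis) of the 7 genes in each of the 16 libraries, by group; circles are replicates 1 and 2, triangles replicates 3 and 4, and bars the group means (n = 4). For each gene the Foxp3UP libraries lie apart from the MockUP libraries, above them for Neb and below them for the other 6, while Foxp3DN and MockDN libraries overlap for each gene.

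In Foxp3UP cells 6 of the 7 genes were lower than in MockUP cells, by 3.05-fold for Gcnt2 to 13.0-fold for Cd163l1, and Neb was 5.00-fold higher. In Foxp3DN cells none of the 7 was called against MockDN. The groups' libraries did not overlap for any of the 7 in the UP arm, where 15.9% of all genes tested did not overlap (8.61% higher and 7.29% lower), and nothing is read from that count because the genes were chosen there. They overlapped for all 7 in the DN arm, where 1.15% of all genes did not overlap (0.547% higher and 0.598% lower). Without MockUP 2 the log2 fold changes were -3.59 for Cd163l1, 2.33 for Neb, -1.74 for Aff3, -1.52 for Pou6f1, -1.46 for Gcnt2, -2.01 for Tuba8 and -1.99 for Chl1. In bulk libraries fewer cells that express a gene and less RNA per cell cannot be told apart.

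Cd163l1 (ENSMUSG00000025461, chr7:140218267-140231145, plus strand, 12 exon blocks) had 8, 3, 5 and 9 reads in the Foxp3UP libraries, against 61, 101, 77 and 77 in the MockUP libraries. In CPM these were 0.705, 0.249, 0.501 and 0.976 in Foxp3UP and 5.62, 9.59, 7.77 and 8.33 in MockUP. Each Foxp3UP library was far below each MockUP library. The log2 fold change was -3.70 ± 0.27 (SE), rank 3 by size among the 6785 genes with a negative value. In the other arm the CPM values were 10.6, 9.77, 8.74 and 9.79 in Foxp3DN and 8.89, 6.54, 8.12 and 7.73 in MockDN. The Foxp3DN libraries were mostly the higher ones, but the highest MockDN library lay within their range. The difference in the DN arm was 0.31 ± 0.20 with a 95% interval of -0.10 to 0.73 (edgeR adjusted p = 1.00).

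The gene next to it, 5830411N06Rik, is its paralogue Scart2 and lies 16139 bases downstream on the same strand. It had 0, 1, 1 and 1 reads in Foxp3UP, against 19, 42, 10 and 7 in MockUP. It was nearly undetected in Foxp3UP libraries. Summed over the libraries, 3 reads in Foxp3UP stood against 78 in MockUP, a ratio of 0.0366 (95% exact interval 0.0074 to 0.111, which covers counting error only). In the fit over all 16 libraries 5830411N06Rik was called lower (edgeR adjusted p = 0.0077). It passed the filter on low counts only through groups where it was higher, so this call is a description. With only the 8 libraries compared it did not pass. In the DN arm it had 43, 43, 12 and 9 reads in Foxp3DN and 32, 38, 5 and 12 in MockDN and was not called (adjusted p = 1.00). The gene on the other side of Cd163l1, Mtg1, was at -0.21 ± 0.17 in Foxp3UP against MockUP (edgeR adjusted p = 0.478). No stretch of 50 bases of the Cd163l1 transcripts occurs in a transcript of another gene, so reads of the paralogues can be told apart at that length.

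**Figure D2:**
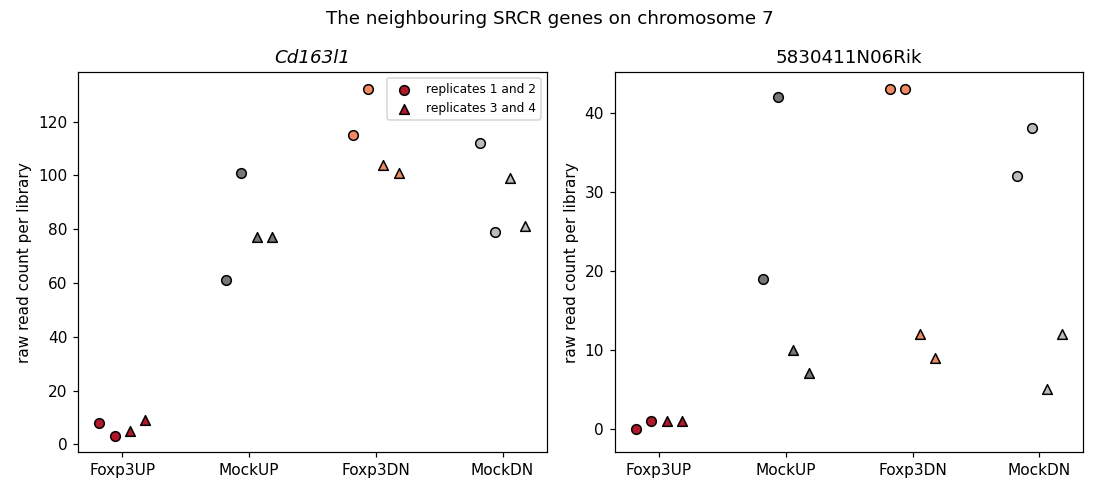
Raw read counts per library of Cd163l1 (left) and its neighbour 5830411N06Rik (right) in the 4 groups; circles are replicates 1 and 2, triangles replicates 3 and 4. Foxp3UP libraries held 3 to 9 reads of Cd163l1 and 0 to 1 of 5830411N06Rik, and 5830411N06Rik was lower in replicates 3 and 4 of MockUP, Foxp3DN and MockDN than in replicates 1 and 2.

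Because both genes are known from gamma-delta T cells, markers of those cells were examined beside them. The 14 markers, with 5830411N06Rik among them, summed to 181 to 265 CPM in the Foxp3UP libraries, 163 to 284 in the MockUP libraries, 214 to 290 in Foxp3DN and 206 to 265 in MockDN. Trdc, the constant region of the delta chain, made up most of this, at 154 to 201 CPM in Foxp3UP and 123 to 191 in MockUP. Tcrg-C2, a constant region of the gamma chain, was at 5.49 to 11.2 CPM in Foxp3UP and 11.0 to 24.8 in MockUP, and Tcrg-C4 was at 6.61 to 26.6 CPM in Foxp3UP and 13.5 to 48.1 in MockUP. Trgv2, a variable segment of the gamma chain, was at 2.33 to 3.58 CPM in Foxp3UP and 3.70 to 6.86 in MockUP. These did not overlap, as in 15.9% of all genes tested (7.29% lower). Trdv4, a variable segment of the delta chain, was at 7.93 to 19.1 CPM in Foxp3UP and 5.98 to 10.9 in MockUP. Some other markers of the list were near 0 over the 16 libraries together, with 1 read for Blk, 10 for Il23r and 5 for Il17a. The constant regions had 30165 reads for Trdc, 4895 for Tcrg-C4 and 2952 for Tcrg-C2. No marker was at 0 in all libraries, and the part of such cells in the Cd163l1 values was not tested.

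Of the other SRCR genes, 7 of 19 passed the filter, of which 1 was higher, 1 lower and 5 not called in Foxp3UP against MockUP. Over all genes 6.08% were called higher and 5.99% lower, 12.1% together (833 and 821 genes, or 646 and 1081 when scaled by library totals). Lgals3bp, a secreted galectin-binding glycoprotein, averaged 443 ± 41.3 CPM in Foxp3UP and 336 ± 30.8 in MockUP (log2 fold change 0.40 ± 0.10, edgeR adjusted p = 0.0129). The member called lower was 5830411N06Rik, and the median of the 7 was -0.00. Cd5 and Cd6, SRCR receptors that restrain T cell receptor signals, had mean levels per length of 64.6 and 93.1 RPKM (counts scaled for depth and exonic length) in Foxp3UP and 64.7 and 99.2 in MockUP. Without Foxp3UP 1 or without MockUP 4 the call of Lgals3bp was lost (adjusted p = 0.0536 and 0.0514). With only the 8 libraries compared, 5830411N06Rik did not pass the filter and Lgals3bp stood at adjusted p = 0.0876.

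Neb (ENSMUSG00000026950, chr2:52136647-52378474, minus strand) has an exonic length of 26675 bases in 167 blocks, the longest of the 7. Its CPM values were 56.2, 59.3, 82.9 and 95.1 in Foxp3UP, against 21.6, 15.2, 10.2 and 11.6 in MockUP. The lowest Foxp3UP library was well above the highest MockUP library. Neb thus differed by a log2 fold change of 2.32 ± 0.28, rank 20 among the 6926 genes with a positive value. For Foxp3DN and MockDN, the CPM values of Neb were 13.6, 11.7, 7.06 and 9.98 in Foxp3DN and 14.1, 16.0, 8.20 and 7.64 in MockDN. The groups overlapped, and the difference was -0.12 ± 0.28 with an interval of -0.72 to 0.47 (edgeR adjusted p = 1.00).

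The size of the Neb difference varied with the set of replicates. In replicates 1 and 2 the log2 fold change was 1.65 ± 0.18, and in replicates 3 and 4 it was 3.03 ± 0.19, both from 1 fit over all libraries. Replicates 3 and 4 were the higher ones in Foxp3UP and the lower ones in MockUP, Foxp3DN and MockDN. The mean log2 CPM of replicates 1 and 2 minus that of replicates 3 and 4 was -0.62 in Foxp3UP libraries, 0.73 in MockUP libraries, 0.58 in Foxp3DN and 0.91 in MockDN. Whether the sets differ in the Neb response was not tested.

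Skeletal muscle markers gave little signal in each group. The 10 markers together stood at 6.24 to 9.44 CPM in Foxp3UP libraries, 5.79 to 10.7 in MockUP libraries, 7.07 to 7.92 in Foxp3DN and 6.72 to 9.44 in MockDN, and Neb alone was above that sum in each Foxp3UP library. Mylpf had the most reads of the 10, with 871 over all 16 libraries, and Tnnt3 had 224. Mylpf lay between 3.41 and 5.53 CPM in Foxp3UP and 2.47 and 6.6 in MockUP. Acta1, the actin of skeletal muscle, had 58 reads over all 16 libraries, and Myh1 and Myh4, myosin heavy chains, had 1 each. Ttn, the giant muscle protein titin, lay between 0.705 and 1.52 CPM in Foxp3UP and 1.01 and 1.61 in MockUP.

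Of 32 relatives of nebulin and proteins of actin thin filaments, 18 passed the filter. In Foxp3UP against MockUP 2 were higher, 1 lower and 15 not called, where 12.1% of all genes were called. Nebl, which encodes the nebulin relative nebulette, was lower where Neb was higher, at 12.9, 19.9, 10.1 and 12.7 CPM in Foxp3UP and 27.4, 34.5, 24.7 and 24.1 in MockUP. Its groups did not overlap, as in 15.9% of all genes tested (7.29% lower), and its log2 fold change was -0.99 ± 0.21 (edgeR adjusted p = 0.00521). Actg1, the cytoplasmic gamma-actin, rose by 0.34 (adjusted p = 0.0105) and Tpm1, a tropomyosin, by 0.41 (adjusted p = 0.0368). The Tpm1 call was lost without each of Foxp3UP 1, Foxp3UP 3, Foxp3UP 4, MockUP 2, MockUP 3 and MockUP 4, and both it and Actg1 were not called with only the 8 libraries compared (adjusted p = 0.175 and 0.109). With the replicate number as a block, 8 of the 18 were called, 6 higher and 2 lower, where 25.3% of all genes were called in that fit (13.3% higher and 12.0% lower). The median log2 fold change of the 18 was 0.13, and that of all genes was 0.00. Per length, Neb was at 2.75 ± 0.704 RPKM in Foxp3UP and 0.548 ± 0.190 in MockUP, while Nebl averaged 0.914 in Foxp3UP and 1.82 in MockUP.

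Aff3 (ENSMUSG00000037138, chr1:38177326-38664955, minus strand) had the smallest SE of the 7. Its CPM values were 4.05, 4.66, 3.41 and 4.99 in Foxp3UP, against 12.5, 20.4, 14.6 and 15.8 in MockUP. The highest Foxp3UP library was far below the lowest MockUP library. The log2 fold change was -1.89 ± 0.18, with -1.91 in replicates 1 and 2 and -1.86 in replicates 3 and 4. Aff3 in the DN arm had CPM values of 17.5, 13.6, 14.6 and 15.5 in Foxp3DN and 16.6, 10.8, 13.7 and 14.4 in MockDN, which overlapped. The difference there was 0.14 ± 0.17 with an interval of -0.21 to 0.49 (edgeR adjusted p = 1.00).

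B cells are a known site of Aff3 expression, and their markers were set beside it. Ms4a1 and Pax5 had no read in any library, and Cr2 had 2 over all 16. Others were detected, with 792 reads for Cd79b and 142 for Cd79a. Cd79b was at 3.66 to 6.92 CPM in Foxp3UP and 3.04 to 5.16 in MockUP. The 10 markers together were at 282 to 358 CPM in Foxp3UP and 129 to 207 in MockUP, of which Ighm, the constant region of immunoglobulin M, made up 277 to 351 in Foxp3UP and 126 to 201 in MockUP. This sum was higher in the group where Aff3 was lower, and its part in the Aff3 values was not tested.

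The AFF family and elongation factors had 16 of 19 genes past the filter, with a median log2 fold change of -0.07. By edgeR 0 were higher, 1 lower and 15 not called, where 12.1% of all genes were called. At an unadjusted p under 0.05 there were 2 by edgeR, and DESeq2 also called 0 higher and 1 lower. Aff1 and Aff4, the family's subunits of the super elongation complex, were at -0.22 ± 0.20 (adjusted p = 0.528) and -0.05 ± 0.14 (adjusted p = 0.866). Mllt1, a reader protein of the same complex, averaged 25.5 ± 1.80 CPM in Foxp3UP and 38.6 ± 13.1 in MockUP and was called lower (-0.60 ± 0.17, edgeR adjusted p = 0.0297). Its MockUP mean rested on MockUP 2 at 57.9 CPM, and the call was lost without that library (-0.34, adjusted p = 0.0521), without Foxp3UP 1, 2 or 4 (0.0785, 0.0684 and 0.063) and with only the 8 libraries compared (0.114).

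Pou6f1 (ENSMUSG00000009739, chr15:100575318-100599984, minus strand) had CPM values of 2.56, 3.99, 5.41 and 3.80 in Foxp3UP, against 8.01, 18.4, 17.0 and 8.87 in MockUP. MockUP 1 and 4 lay nearer to the Foxp3UP libraries than to MockUP 2 and 3, but above all of them. Pou6f1 thus differed by a log2 fold change of -1.73 ± 0.28. Its DN values were 20.4, 18.2, 19.1 and 20.3 CPM in Foxp3DN, a narrow range, and 16.2, 10.3, 18.9 and 17.0 in MockDN. The groups overlapped at MockDN 3, and the difference was 0.32 ± 0.25 with an interval of -0.21 to 0.84 (edgeR adjusted p = 1.00).

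The 15 other POU genes listed include Pou2af1, a cofactor without a POU domain. Of these 15, 5 passed the filter, Pou2af1 among them. By edgeR 0 were called in either direction, where 12.1% of all genes were called (1 at an unadjusted p under 0.05, and 0 called by DESeq2). The median log2 fold change was -0.17. Pou2f1 and Pou2f2, the octamer-binding factors Oct1 and Oct2 of lymphocytes, were at -0.08 ± 0.12 (adjusted p = 0.731) and -0.17 ± 0.18 (adjusted p = 0.596). Pou3f1 stood at -0.83 ± 0.37 (adjusted p = 0.159). Per length Pou6f1 was at 0.567 ± 0.169 RPKM in Foxp3UP and 1.88 ± 0.774 in MockUP, while Pou2f1 averaged 1.49 RPKM in Foxp3UP and 1.57 in MockUP, and Pou2f2 2.57 in Foxp3UP and 2.90 in MockUP.

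Gcnt2 (ENSMUSG00000021360, chr13:40859754-40960892, plus strand) has 3 RefSeq starts, and its counts sum over all of them. Its CPM values were 3.08, 5.32, 2.11 and 3.69 in Foxp3UP, against 7.65, 14.1, 11.9 and 10.1 in MockUP. The highest Foxp3UP library was below the lowest MockUP library. Gcnt2 thus differed by a log2 fold change of -1.61 ± 0.28. Foxp3DN libraries had 12.7, 9.33, 13.2 and 10.4 CPM and MockDN libraries 11.1, 5.05, 10.0 and 8.21 CPM. The Foxp3DN library was the higher one in 4 of 4 pairs of the same number, with MockDN 2 the lowest of the arm, but the groups overlapped. The difference was 0.41 ± 0.26 with an interval of -0.14 to 0.95 (edgeR adjusted p = 1.00).

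An antisense gene, A730081D07Rik, shares 482 exonic bases with Gcnt2, which is 6.84% of its exons. It had 36 reads in Foxp3UP and 126 in MockUP, while Gcnt2 had 154 in Foxp3UP and 443 in MockUP. In the DN arm it had 137 reads in Foxp3DN and 105 in MockDN. The sources used here do not say whether counting used strand, so reads from the pair cannot be told apart where they overlap.

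Of 45 other glycosyltransferases and sulfotransferases of O-glycans and branched chains, 40 passed the filter. In Foxp3UP against MockUP 1 was higher, 2 lower and 37 not called, where 12.1% of all genes were called. Fut7, the fucosyltransferase that completes selectin ligands, was at 30.8, 21.8, 20.1 and 21.5 CPM in Foxp3UP and 16.5, 12.5, 9.39 and 7.89 in MockUP. It was called 2.03-fold higher (edgeR adjusted p = 0.0339), but the call was lost when any single library other than MockUP 1 was left out, with adjusted p from 0.0519 to 0.118. Fut7 kept its call with only the 8 libraries compared (edgeR adjusted p = 0.0406) and with the replicate number as a block (0.000166). With library totals or with no filter, 0 genes of the list were called higher. St6galnac4, a sialyltransferase, was lower by 1.72-fold (adjusted p = 0.0133) and Mgat5, which starts a branch of N-glycans, by 1.64-fold (adjusted p = 0.0134, and 0.064 with only the 8 libraries compared). Gcnt1, the core-2 branching enzyme of O-glycans, stood at 0.62 ± 0.24 (adjusted p = 0.108, and 0.0041 with the replicate number as a block). With the block 12 of the 40 were called, 7 higher and 5 lower, beside 25.3% of all genes. The median log2 fold change of the 40 was 0.02.

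Tuba8 (ENSMUSG00000030137, chr6:121210696-121226854, plus strand) was among the least abundant of the 7. It had 4, 7, 8 and 6 reads in Foxp3UP and 19, 21, 35 and 18 in MockUP, which were 0.352, 0.582, 0.802 and 0.651 CPM in Foxp3UP and 1.75, 1.99, 3.53 and 1.95 CPM in MockUP. The Foxp3UP libraries were all below the MockUP libraries, of which MockUP 3 was the highest. The log2 fold change was -1.94 ± 0.37. In the DN arm the CPM values were 1.84, 3.41, 2.94 and 4.36 in Foxp3DN and 2.78, 3.72, 2.71 and 4.96 in MockDN, which overlapped. The difference was -0.17 ± 0.28 with an interval of -0.77 to 0.43 (edgeR adjusted p = 1.00). An antisense gene, Gm15856, covers 16.26% of the Tuba8 exons and had 6 reads in Foxp3UP and 26 in MockUP, while Tuba8 had 25 in Foxp3UP and 93 in MockUP.

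Of 19 other tubulin genes 15 passed the filter, and edgeR called 0 of them in either direction, where 12.1% of all genes were called. Of these 15, 0 had an unadjusted p under 0.05 and 0 were called by DESeq2. Their median log2 fold change was 0.115. Tuba1b, the main alpha-tubulin of these cells per length at 163 RPKM in Foxp3UP and 154 in MockUP, was at 0.08 ± 0.30 (adjusted p = 0.897). Tuba1a was at 0.14 ± 0.13 (adjusted p = 0.553) and Tuba4a at -0.08 ± 0.12 (adjusted p = 0.718). Tuba8 itself was at 0.264 ± 0.0827 RPKM in Foxp3UP and 1.02 ± 0.364 in MockUP. With the replicate number as a block 3 of the 15 were called, beside 25.3% of all genes, Tubb5 (0.21) and Tubb6 (0.26) higher and Tubb2a (-0.27) lower. Only 4 of 2214 stretches of 50 bases in Tuba8 occur in another gene, in Tuba3a and Tuba3b.

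Chl1 (ENSMUSG00000030077, chr6:103510586-103750211, plus strand) had 14, 15, 10 and 4 reads in Foxp3UP and 87, 65, 18 and 18 in MockUP, which were 1.23, 1.25, 1.00 and 0.434 CPM in Foxp3UP and 8.01, 6.17, 1.82 and 1.95 CPM in MockUP. MockUP 3 and 4 were much closer to the Foxp3UP libraries than MockUP 1 and 2 were. The log2 fold change was -2.17 ± 0.67, the widest error of the 7, with -2.51 ± 0.37 in replicates 1 and 2 and -1.36 ± 0.50 in replicates 3 and 4. Its CPM values in the DN arm were 4.05, 2.74, 0.925 and 1.07 in Foxp3DN and 6.67, 5.30, 0.902 and 2.20 in MockDN. Replicates 1 and 2 were again the high ones in both groups. The difference was -0.78 ± 0.60 with an interval of -2.05 to 0.49 (edgeR adjusted p = 1.00).

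Chl1 was the gene of the 7 that differed most between the sets of replicates. Mean log2 CPM in replicates 1 and 2 exceeded that in replicates 3 and 4 by 0.74 in Foxp3UP libraries, 1.81 in MockUP libraries, 1.58 in Foxp3DN and 1.93 in MockDN. The corresponding values for Aff3 were 0.07 in both Foxp3UP and MockUP libraries, 0.04 in Foxp3DN and -0.07 in MockDN. Markers of neurons and glia gave little signal apart from Mbp, with 0 reads for Snap25 and 5 for Rbfox3 over all libraries, and summed to 79.5 to 89.8 CPM in Foxp3UP and 82.9 to 130 in MockUP.

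Of 28 genes of the L1 family and its partners, 13 passed the filter, with a median log2 fold change of -0.13. Of these 13, 1 was higher, 1 lower and 11 not called, where 12.1% of all genes were called. The fit blocked by replicate called 1 higher and 2 lower, and 25.3% of all genes. Itgb1, the integrin beta1 subunit, was at 454, 493, 481 and 481 CPM in Foxp3UP and 796, 964, 843 and 767 in MockUP and fell by 0.82 on the log2 scale (edgeR adjusted p = 2.73e-05). Itga2, an alpha subunit that pairs with it in a collagen receptor, was at 10.8, 13.1, 12.6 and 11.0 CPM in Foxp3UP and 5.43, 8.92, 6.56 and 5.73 in MockUP and rose by 0.83 (adjusted p = 0.0115). L1cam, the founding member of the family, averaged 2.01 RPKM in Foxp3UP and 1.75 in MockUP, while Chl1 was at 0.0797 ± 0.0310 RPKM in Foxp3UP and 0.365 ± 0.252 in MockUP.

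Ordered by level per length, Neb was the highest of the 7 genes in Foxp3UP, at the percentile 35.9 of all genes tested, and the sixth in each of MockUP, Foxp3DN and MockDN. In Foxp3UP it was followed by Aff3, Pou6f1 and Gcnt2 at 0.643 ± 0.105, 0.567 ± 0.169 and 0.503 ± 0.191 RPKM, which lie within their SDs of each other, and then by Tuba8, Cd163l1 and Chl1. In MockUP the order was Aff3, Cd163l1, Pou6f1, Gcnt2, Tuba8, Neb and Chl1, and the first 4, from 2.38 ± 0.500 to 1.55 ± 0.391 RPKM, each overlapped the next within 1 SD. In Foxp3DN and MockDN Pou6f1 stood first, at 2.80 ± 0.147 and 2.25 ± 0.532 RPKM. All 7 are genes of low abundance: in MockUP they lay between the percentiles 6.17 and 32.9.

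**Figure D3:**
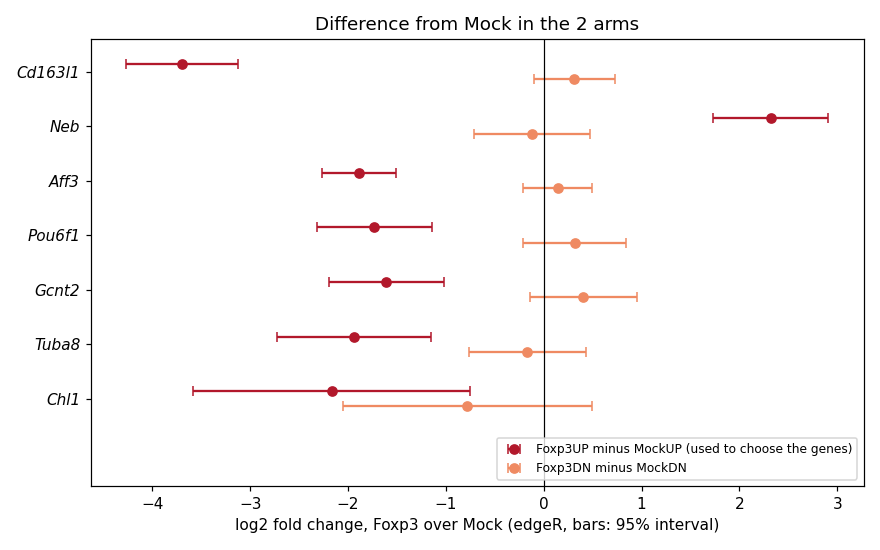
Log2 fold change of the 7 genes, Foxp3 over Mock, in the UP arm (dark, the contrast by which they were chosen) and the DN arm (light), with 95% intervals from edgeR over 16 libraries. The UP values run from -3.70 for Cd163l1 to 2.32 for Neb. In this fit without the replicate block, each interval of the DN arm includes 0.

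Foxp3DN against MockDN was the comparison in which the 7 genes could be tested. With edgeR 0 of 7 were called and 0 had an unadjusted p under 0.05, the smallest being 0.132. With DESeq2 0 were called and 0 had an unadjusted p under 0.05, and with the replicate number as a block 0 were called and 3 had an unadjusted p under 0.05. Over all genes 1.04% had an unadjusted p under 0.05 without the block and 4.0% with it. At the adjusted threshold 0.00729% of all genes were called by edgeR, which was 1 gene, Thy1. Thy1, which encodes CD90, the antigen of 1 of the sort markers, averaged 62.1 ± 9.02 CPM in Foxp3DN and 176 ± 23.8 in MockDN (-1.51 ± 0.18, edgeR adjusted p = 0.00317), and 56.5 ± 3.95 in Foxp3UP and 918 ± 287 in MockUP. Its part in the values of the 7 genes was not tested. The p-values do not show that the 7 genes were equal in Foxp3DN and MockDN cells. The intervals give the sizes that remain possible in the fit without the block. With the block the SE of each of the 7 was smaller. The differences largest beside their SE were then -0.75 ± 0.25 for Chl1, 0.44 ± 0.16 for Gcnt2 and 0.34 ± 0.14 for Pou6f1.

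The Mock cells of the arms and the Foxp3 cells of the arms were also set side by side, without a test since each pair holds libraries used in the choice. MockUP minus MockDN was -0.00 ± 0.20 for Cd163l1, 0.35 ± 0.28 for Neb, 0.19 ± 0.17 for Aff3 and -0.26 ± 0.25 for Pou6f1. It was 0.35 ± 0.26 for Gcnt2, -0.61 ± 0.30 for Tuba8 and 0.26 ± 0.57 for Chl1. The largest of these differences in size was that of Tuba8. Foxp3UP minus Foxp3DN was -4.01 ± 0.27 for Cd163l1, 2.79 ± 0.29 for Neb, -1.84 ± 0.18 for Aff3 and -2.31 ± 0.28 for Pou6f1. It was -1.67 ± 0.28 for Gcnt2, -2.39 ± 0.36 for Tuba8 and -1.13 ± 0.70 for Chl1.

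**Figure D4:**
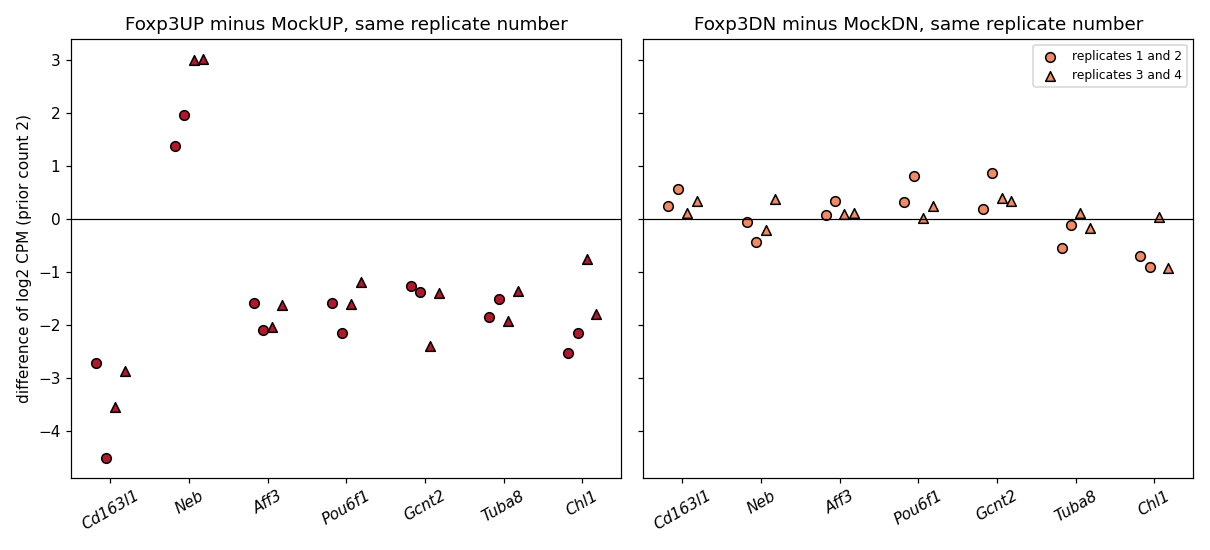
Difference of log2 CPM (prior count 2) between the Foxp3 and Mock library of the same replicate number, for each of the 7 genes in the UP arm (left) and the DN arm (right). In the UP arm Neb is higher in 4 of 4 pairs and each other gene lower in 4 of 4, and in the DN arm no difference exceeds 1 on the log2 scale.

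Pair by pair, the UP arm spanned -4.50 to -2.71 for Cd163l1, 1.38 to 3.02 for Neb, -2.09 to -1.59 for Aff3 and -2.16 to -1.19 for Pou6f1. It spanned -2.40 to -1.26 for Gcnt2, -1.92 to -1.35 for Tuba8 and -2.53 to -0.76 for Chl1. In the DN arm the pairs spanned 0.10 to 0.57 for Cd163l1, 0.08 to 0.34 for Aff3, 0.01 to 0.80 for Pou6f1 and 0.19 to 0.86 for Gcnt2, all 4 pairs higher in Foxp3DN for each of these genes, as in 8.12% of all genes. For Neb, Tuba8 and Chl1 3 of 4 pairs were lower and 1 higher.

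The nearest measured genes on the chromosome are given beside the 7, which were chosen for large differences in Foxp3UP against MockUP while the neighbours were not. Among the 14 nearest genes past the filter, 1 on each side of each gene, 4 were called in that comparison, where 12.1% of all genes were called. Besides 5830411N06Rik these were Rif1 (-0.46 ± 0.09, edgeR adjusted p = 0.00452) and Arl5a (0.35 ± 0.09, adjusted p = 0.0197), which flank Neb at 14264 and 19477 bases, and Rev1 (-0.49 ± 0.13, adjusted p = 0.017), 47525 bases from Aff3. The nearest measured genes to Chl1 lie 2640652 and 3018909 bases away, Ppp4r2 at -0.43 ± 0.14 (adjusted p = 0.0518) and Trnt1 at -0.16 ± 0.09 (adjusted p = 0.267).

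**Figure D5:**
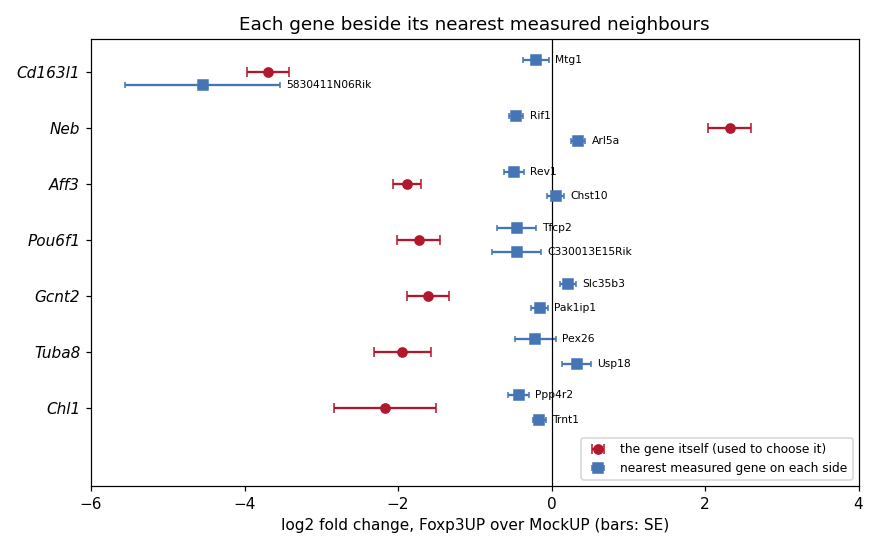
Log2 fold change in Foxp3UP over MockUP (bars, SE) of each of the 7 genes (circles) and of the nearest gene past the filter on each side of it (squares). The 7 genes were chosen for this difference. Except for 5830411N06Rik beside Cd163l1, the neighbours lie between -0.49 and 0.35.

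The genes whose profile over the 16 libraries was most like each of the 7 were found by the root-mean-square difference of centred log2 CPM. The search left out the 7 genes themselves and genes with predicted, Riken or clone names, such as 5830411N06Rik. For Cd163l1 these were Tcf7 (0.733) and Prr5l (0.785), where the spread of Cd163l1 itself was 1.56. Tcf7, a transcription factor of memory and stem-like T cells, was also the nearest to Pou6f1 (0.303), followed by Tdrp (0.338). For Neb they were Maf (0.32), a transcription factor that drives Il10, and Cysltr1 (0.365), a leukotriene receptor. Fam78b was the nearest to both Aff3 (0.197) and Gcnt2 (0.324), followed by Prr5l (0.248) for Aff3 and Cx3cr1 (0.35), the fractalkine receptor of effector cells, for Gcnt2. Tuba8 was nearest to Id3 (0.423), which restrains effector differentiation, and Mpzl2 (0.443), and Chl1 to Kit (0.461), a receptor tyrosine kinase, and Osr2 (0.605).

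Among the 7 themselves, Aff3 and Gcnt2 were the most alike at 0.27, followed by Aff3 and Pou6f1 at 0.427 and Pou6f1 and Tuba8 at 0.449. Of the 6 genes that were lower, Cd163l1 and Chl1 differed most, at 1.41. These values describe profiles that share the same libraries and the contrast used in the choice.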

How the data were processed

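RNA was sequenced from transferred CD8 T cells sorted from tumours, in 4 groups of 4 libraries named by their titles. The deposited table, 1 for the series, holds raw counts of reads per gene made by the authors. Tools named in the submitters' processing notes are Subread 1.6.3 and STAR 2.6.1, with build mm10. Per the file headers the table also gives each gene's exon coordinates, counted from 1, and its exonic length in bases, a further value used for RPKM. For the counting options, use of strand and annotation release, nothing is given in the sources used here. Of 55573 gene identifiers, 55480 were found in GENCODE M21, whose symbols were used. Each column was matched by the sample number in a title, and no 2 libraries held identical counts.

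Genes were kept by filterByExpr of edgeR 4.0.16 (R 4.3.3) at a minimum count of 10, which left 13711. TMM factors scaled the libraries, and all 16 entered 1 robust quasi-likelihood model with group as the factor. Two-sided p-values were adjusted by Benjamini-Hochberg over all genes tested, and those under 0.05 are named calls. The SE of a log2 fold change was derived from F, as the absolute change over the root of F, and 95% intervals use the fit's degrees of freedom. Totals of 9389477 to 13226590 counts limit the precision of genes with few reads. The steps were tested on simulated data. Promoter sequences are from RefSeq tables on GRCm38.p6, which held 6 of the 7 genes.

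The 7 genes, the family lists and the marker lists were chosen with earlier results of these data known. The text names the 7 genes, up to 4 called genes of each family by smallest adjusted p, the nearest gene past the filter on each side, the 2 genes most alike in profile, and Foxp3 and Thy1. Other family members, markers and antisense genes are named as examples chosen after their values were seen. Some single marker genes are not reported here. Same-numbered libraries deviated together from their group means, at correlations of 0.213 to 0.63 in the UP arm and 0.298 to 0.582 in the DN arm. Different numbers within a set of replicates did so too, at 0.0444 to 0.364 in the UP arm and 0.172 to 0.237 in the DN arm. The correlations alone thus do not show that the numbers are pairs. The numbers were taken as pairs in blocked fits, with replicate as a block within each arm. These fits are given where they change a result. Alternatives were RLE factors, library totals, no filter, a filter of at least 1 CPM in 4 libraries, DESeq2 1.42.0, the block, only the 8 libraries compared, each library left out, and each set of replicates.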

Additional observations from a re-analysis of the deposited data

Results flagged for a closer look

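Cd163l1, Aff3, Pou6f1 and Gcnt2 stood out because the Foxp3 library was lower in 4 of 4 same-numbered pairs of the UP arm and higher in 4 of 4 pairs of the DN arm. The UP direction is the one the genes were chosen by, and 8.12% of all genes were higher in 4 of 4 DN pairs. The UP effect minus the DN effect was -4.01 log2 units for Cd163l1, -2.03 for Aff3, -2.05 for Pou6f1 and -2.02 for Gcnt2. This difference was not tested, because the genes were chosen for their UP effect, and none of the 4 was called in the DN arm by edgeR.

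Tuba8 in MockUP 3 stood at 3.53 CPM, far from the 1.75, 1.99 and 1.95 CPM of the other MockUP libraries. Across the 7 genes, 28 sets of 4 libraries were examined for such a value and 1 was found, where chance gives about 1 in 20. Without that library the UP difference of Tuba8 was -1.67.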

How the results depend on the processing

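Genes called in Foxp3UP against MockUP numbered 1654. The replicate block gave 3475, only the 8 libraries compared 658, replicates 1 and 2 alone 31 and replicates 3 and 4 alone 3025. Within the sets in 1 fit over all libraries, chosen after seeing the data, 1360 and 1253 were called. Leaving out 1 library gave 1064 (without Foxp3UP 1) to 1978 (without MockUP 1), and 1097 without Foxp3UP 3. In Foxp3DN against MockDN, replicates 1 and 2 alone gave 0 calls and replicates 3 and 4 alone 3, and leaving out 1 library gave 1 each time. In the UP arm the 7 genes kept their sign under all 19 alternatives. Only Neb left the 95% interval of its main fit (1.73 to 2.91), at 1.65 in replicates 1 and 2 and 3.01 in replicates 3 and 4 alone. In the DN arm Neb changed sign with replicates 3 and 4 alone (0.0891) or in 1 fit (0.0969), without Foxp3DN 3 (0.0275) and without MockDN 2 (0.0790), and Tuba8 without Foxp3DN 1 (0.00873) and without MockDN 4 (0.0231), none past the threshold; leaving out 1 library spanned -0.28 to 0.0790 for Neb and -0.36 to 0.0231 for Tuba8. The block changed none of the 7 calls in the DN arm. Of 133 family counts under alternatives 26 moved by over 1.5 times. The cause was not tested. Low read numbers limit Cd163l1, Tuba8 and Chl1 in Foxp3UP.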

Other observations

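Markers of the other cell types that a sort from tumours could hold were also summed. The 12 myeloid markers stood at 52.3 to 74.5 CPM in Foxp3UP, 35.6 to 55.8 in MockUP, 38.6 to 61.5 in Foxp3DN and 39.0 to 47.6 in MockDN. The 8 markers of melanocytes and epithelium stood at 70.2 to 160 CPM in Foxp3UP, 71.6 to 104 in MockUP, 43.5 to 89.2 in Foxp3DN and 28.3 to 80.4 in MockDN. The 7 markers of fibroblasts and endothelium stood at 54.7 to 68.9 CPM in Foxp3UP, 50.1 to 68.7 in MockUP, 58.4 to 66.3 in Foxp3DN and 54.5 to 65.0 in MockDN. Pecam1 made up most of this, at 53.9 to 63.1 CPM in Foxp3UP and 47.6 to 68.3 in MockUP. Over all libraries there were 0 reads for Cdh5 and 6 for Kdr. The 6 NK cell markers stood at 19.0 to 24.6 CPM in Foxp3UP, 20.8 to 23.6 in MockUP, 18.8 to 22.2 in Foxp3DN and 16.3 to 21.2 in MockDN. Most of this was Eomes, at 15.9 to 21.4 CPM in Foxp3UP and 18.1 to 20.1 in MockUP, while Ncr1 had 13 reads over all libraries. Foxp3UP and MockUP overlapped in each of these 4 sums, and so did Foxp3DN and MockDN, while the myeloid sum of Foxp3UP lay above that of MockDN. Of the myeloid markers, Cd68 stood at 20.3 to 29.2 CPM in Foxp3UP and 9.87 to 16.6 in MockUP. These did not overlap, as in 15.9% of all genes tested. Each other myeloid marker overlapped between Foxp3UP and MockUP. Csf1r went the other way, at 5.40 to 6.72 CPM in Foxp3UP and 6.36 to 8.83 in MockUP.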
